A study of Rattus norvegicus with 6 samples.

Results

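F-box proteins are the interchangeable substrate receptors of the SCF ubiquitin ligases (Skp1, cullin 1, F-box protein). The set described here is every gene of the deposited rat gastrocnemius table whose symbol is Fbxl, Fbxo or Fbxw followed by a number, with capitals ignored. Fbxo30, Fbxo32 and Fbxo40, the family's ligases best known from muscle atrophy and mass control, were left out. That gave 60 of the 26406 genes in the table, from 63 matching symbols, with 1 entry per symbol. The members were chosen by symbol alone, but the set was proposed with earlier results of these rats known, and Fbxl4 was selected on its measured difference in FPKM between olanzapine and vehicle rats. Its values are therefore given as a description with no p-value.

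The RNA came from gastrocnemius muscle of catheterised, singly housed male Sprague Dawley (Crl:SD) rats, 3 infused with olanzapine and 3 with vehicle. Olanzapine, an atypical antipsychotic drug, was infused intravenously, first as a load of 1 mg per 100 g body weight in 0.5 h and afterwards as 0.04 mg per 100 g each h during 23.5 h, and muscle was taken at 24 h. The vehicle rats received the carrier at the same rate and volume. Olanzapine rats 4, 10 and 12 weighed 398, 366 and 400 g, and vehicle rats 3, 9 and 11 weighed 382, 382 and 356 g. Each rat gave 1 mRNA library, so rats are the replicates (n = 3 per group), and values below follow these rat numbers within each group. Expression was given in FPKM, fragments scaled to transcript length and to the mapped total of the library, which corrects for gene length and lets levels of different genes be compared.

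In an SCF ligase, Cul1 is the scaffold, Rbx1 brings the charged ubiquitin-conjugating enzyme, and Skp1 holds the F-box motif of whichever receptor is bound. The rest of the receptor recognises the substrate, often after phosphorylation, through leucine-rich repeats in the Fbxl class, WD40 repeats in the Fbxw class and other domains in the Fbxo class. Receptors compete for a shared pool of cullin, so a muscle fiber holds many SCF ligases at once, each with its own targets in the cell cycle, iron balance, mitochondria or protein quality control.

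The summed FPKM of the libraries lay between 949847 and 1183010 in the olanzapine rats and between 945068 and 1058140 in the vehicle rats. Genes above 0 numbered 14353 to 14795 in the olanzapine rats and 13996 to 14674 in the vehicle rats. Reads per rat are not given in the sources used here. The smallest steps between low values put the depth of the olanzapine libraries at 0.747 to 0.917 times that of vehicle rat 3, and the other vehicle libraries at 0.667 (rat 9) and 0.441 (rat 11). Skeletal muscle markers summed to between 114171 and 154240 FPKM in the olanzapine rats and between 92620 and 117411 FPKM in the vehicle rats, and 0 of the 10 were at 0 in every rat. These sums include the fast fiber genes Mylpf, with group means of 38303 (olanzapine) and 15708 FPKM (vehicle), and Tnnt3, with 18845 and 12593 FPKM. Of the 10 log2 fold changes, olanzapine over vehicle, 6 were positive and 4 negative, with a median of 0.12. Averages reached 1 FPKM for 10285 genes, and of these limma called 5 higher and 47 lower at an adjusted p under 0.05. The log2 fold change had a median over all tested genes (olanzapine over vehicle, on log2 of FPKM + 1) of -0.11, which became 0.03 after median-ratio scaling of the rats, so small negative values lie near the middle of all genes. Muscle was sampled in bulk, so fewer cells of a type and less RNA per cell cannot be told apart.

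The family was mostly expressed at low levels. Averaged over the rats, 13 members reached 10 FPKM, 24 lay between 1 and 10 FPKM, 20 lay below 1 FPKM, and Fbxw10, Fbxl13 and Fbxw12 were listed at 0 in every rat. The 37 members at or above 1 FPKM were tested and the other 23 were not, the filter falling between Fbxo46 at a mean of 1.05 FPKM and Fbxl7 at 0.562 FPKM. All 60 together summed to 502 ± 26.5 FPKM in the olanzapine rats and 449 ± 45.0 FPKM in the vehicle rats (SD, n = 3 each). The most abundant receptors were Fbxo6 and Fbxo31 in the Fbxo class, Fbxw5 and Fbxw2 in the Fbxw class, and Fbxl17. The levels of 12 of the 13 most abundant members are plotted rat by rat.

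**Figure D1:**
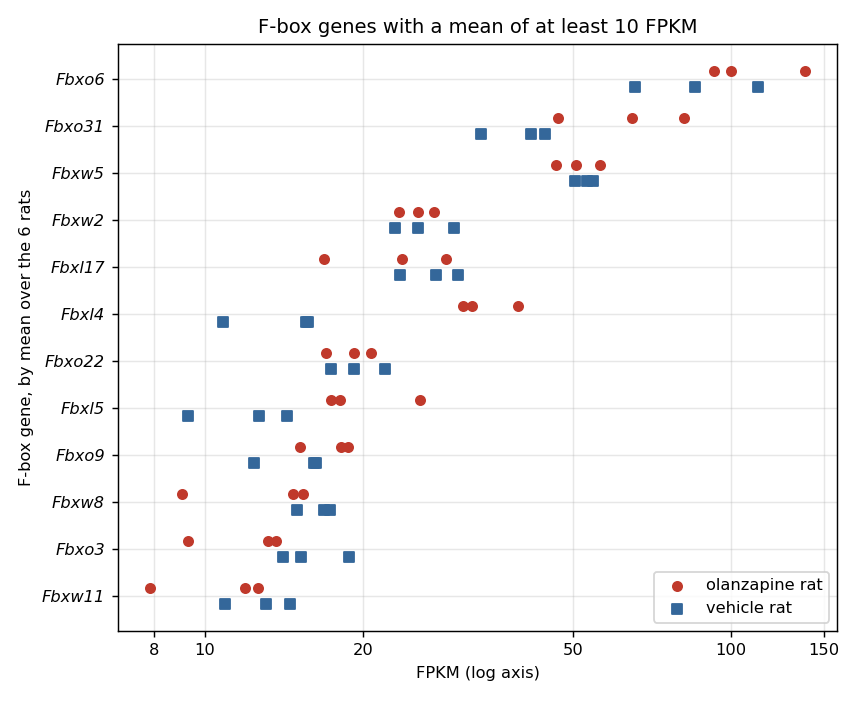
FPKM (log axis) in each rat for 12 of the 13 F-box genes averaging 10 FPKM or more, ordered by mean, with olanzapine rats as circles above vehicle rats as squares. Fbxl4 has a wide gap between the groups, 30.9 FPKM in the lowest olanzapine rat against 15.7 FPKM in the highest vehicle rat, while most other genes overlap.

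Most tested members had overlapping groups, which with 3 rats per group does not show that they were unchanged. At an adjusted p under 0.05, limma called 1 of the 37 tested members higher, where 0.0486% of all tested genes were called higher, and 0 members lower, where 0.457% of all genes were. At an unadjusted p under 0.05 the counts were 3 members higher (3.79% of all genes) and 0 lower (9.45% of all genes). The 3 olanzapine rats all lay above the 3 vehicle rats for Fbxl4, Fbxl5 and Fbxo31 (5.12% of all genes), and all below them for Fbxo3 and Fbxw17 (14.6% of all genes). The member called was Fbxl4, which had been selected on this same contrast, so its call is no test and nothing is read from these counts. The smallest adjusted p of any member other than Fbxl4 was 0.250.

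**Figure D2:**
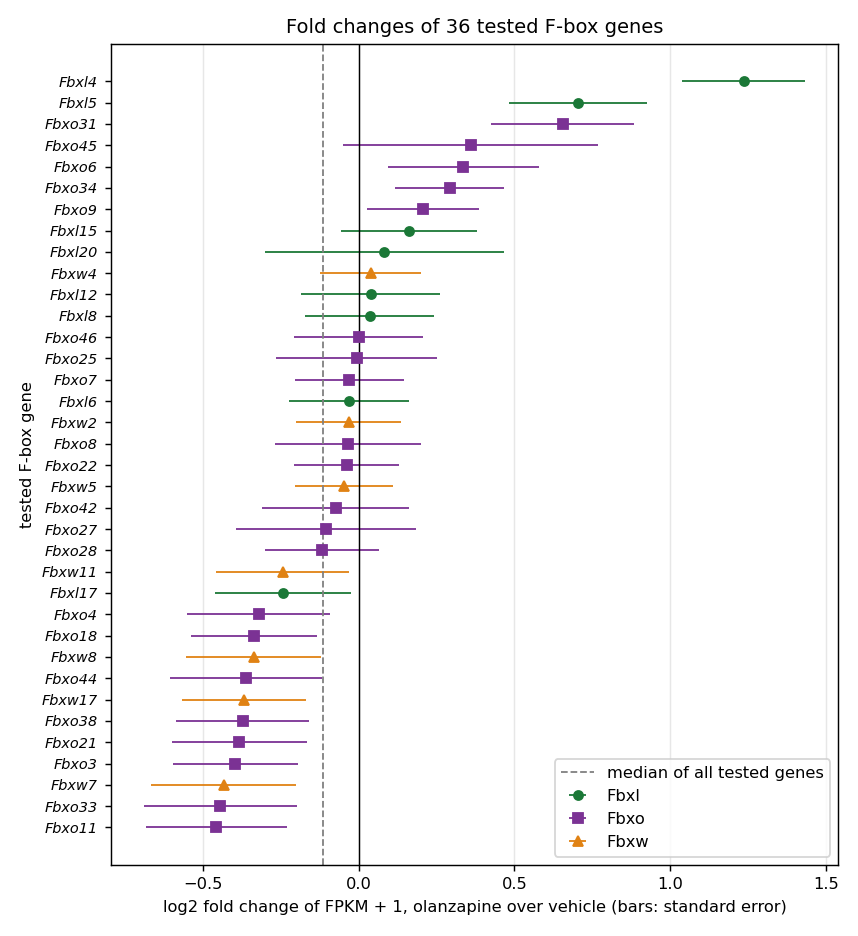
Log2 fold change of FPKM + 1, olanzapine over vehicle, for 36 of the 37 tested F-box genes, with bars of 1 standard error and a marker for each class. Fbxl4 stands at 1.23, Fbxl5 at 0.70 and Fbxo31 at 0.65, and the other genes lie between -0.46 and 0.36, around the dashed median of all tested genes at -0.11.

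Fbxl4 is a leucine-rich repeat receptor of the mitochondrial outer membrane. It limits mitophagy by promoting degradation of the mitophagy receptors BNIP3 and NIX, and in humans its loss causes a mitochondrial DNA depletion syndrome. The gene (spelled FBXL4 in the table, ENSRNOG00000005641) lies at chr5:41196941-41270900 of the rat Rn5 assembly. Fbxl4 was at 30.9, 32.2 and 39.3 FPKM in the olanzapine rats, against 15.6, 15.7 and 10.8 FPKM in the vehicle rats. The groups were far apart, the lowest olanzapine rat being 1.97 times the highest vehicle rat. Mean levels were 34.2 ± 4.53 FPKM in the olanzapine rats and 14.05 ± 2.78 FPKM in the vehicle rats (SD, n = 3 each), a ratio of 2.43 and a log2 fold change of 1.23 (SE 0.20). This placed it at position 63 of 10285 tested genes in order of log2 fold change.

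Within the family Fbxl4 was the fourth most abundant receptor in the olanzapine rats and the eleventh in the vehicle rats. It made up 6.79% ± 0.597 of the family's summed FPKM in the olanzapine rats and 3.12% ± 0.519 in the vehicle rats (SD, n = 3 each). Rescaling a whole library leaves such a share unchanged, but the share also depends on the levels of the other members. Its log2 fold change stayed between 1.07 and 1.32 when each of the 6 rats was left out in turn, and between 1.07 and 1.40 over all alternatives run. The call did not hold as well as the size, since 0 members were called in each of the 6 fits without 1 rat, with no filter on low values, after median-ratio scaling and in limma without a trend.

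The other receptors with all olanzapine rats above all vehicle rats were Fbxl5 and Fbxo31. Fbxl5 is the iron-sensing receptor that marks iron regulatory protein IRP2 for degradation when iron and oxygen are plentiful, and it lies at chr14:71880737-71918708 (Rn5). It was at 17.4, 18.1 and 25.6 FPKM in the olanzapine rats, against 14.3, 12.7 and 9.29 FPKM in the vehicle rats. The groups were close to touching, the lowest olanzapine rat being 1.21 times the highest vehicle rat. The log2 fold change of 0.70 (SE 0.22) did not pass the test (limma, adjusted p = 0.250). Fbxo31 directs cyclin D1 to degradation after DNA damage and lies at chr19:64224823-64363108 (Rn5). Fbxo31 was at 64.8, 46.9 and 81.5 FPKM in the olanzapine rats, against 44.2, 41.7 and 33.6 FPKM in the vehicle rats. Here the olanzapine rats were widely spread, and the lowest of them exceeded the highest vehicle rat by a factor of 1.06. Its log2 fold change of 0.65 (SE 0.23) did not pass the test either (limma, adjusted p = 0.290). A Poisson likelihood ratio test was also run on FPKM summed within each group, as if these sums were read counts. With no term for the spread between rats, this Poisson test called Fbxo31 at an adjusted p of 0.00205. Among members other than Fbxl4 that test called Fbxo31 higher (3.93% of all genes) and 0 lower (4.0% of all genes).

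For Fbxl4, Fbxl5, Fbxo31 and Fbxo6 alike, olanzapine rat 12 was the highest of all rats and vehicle rat 11 the lowest. Olanzapine rat 12 also had the largest summed FPKM, 1183010, and vehicle rat 11 the shallowest library, at 0.441 times the depth of vehicle rat 3. Without olanzapine rat 12 the log2 fold changes were 1.13 for Fbxl4, 0.53 for Fbxl5 and 0.47 for Fbxo31, and without vehicle rat 11 they were 1.07 for Fbxl4, 0.54 for Fbxl5 and 0.54 for Fbxo31. After median-ratio scaling the log2 fold changes were 1.40 for Fbxl4, 0.87 for Fbxl5 and 0.83 for Fbxo31. With libraries scaled to the same total without the 50 top genes they were 1.235, 0.704 and 0.654, in that order. The part of depth and library size in these differences was otherwise not tested.

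**Figure D3:**
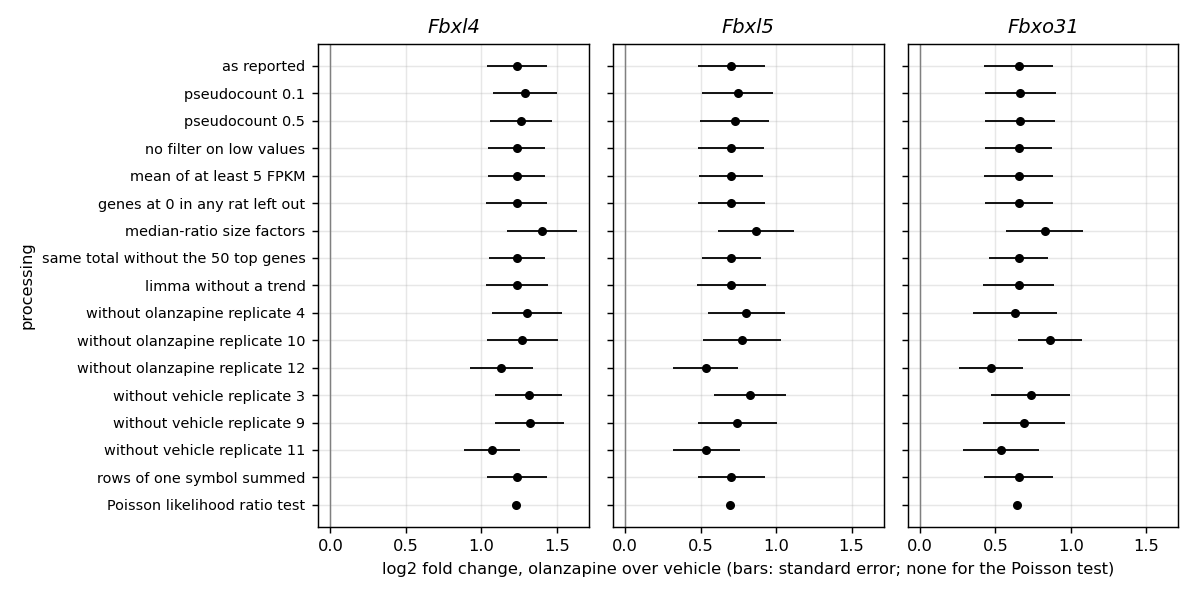
Log2 fold change, olanzapine over vehicle, of Fbxl4, Fbxl5 and Fbxo31 under each processing alternative, with bars of 1 standard error except for the Poisson test, which has none. All points lie right of 0, between 1.07 and 1.40 for Fbxl4, and the points without olanzapine rat 12 or vehicle rat 11 are the lowest or among the lowest in each panel.

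**Figure D4:**
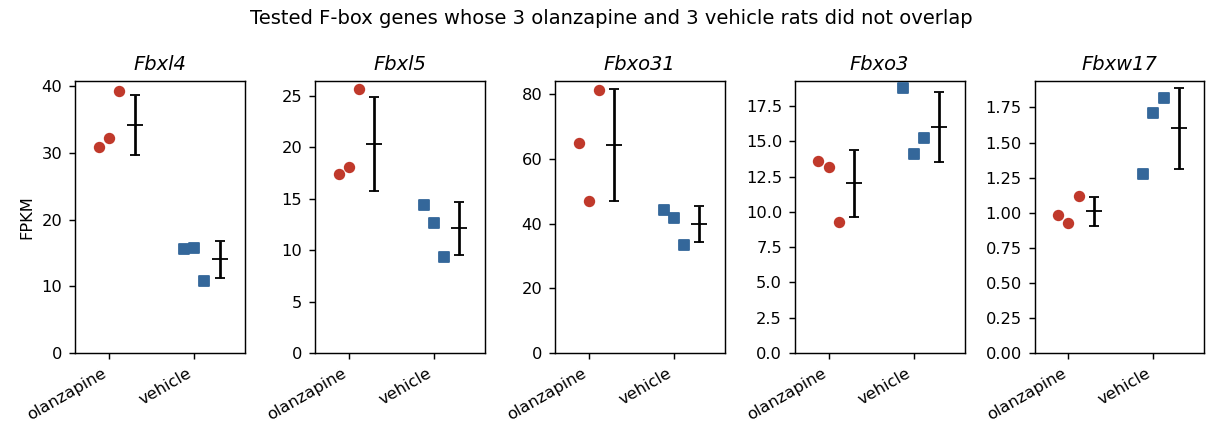
FPKM of the 5 tested F-box genes whose groups did not overlap, with olanzapine rats as circles left of vehicle rats as squares, a mean and SD beside each group (n = 3), and each axis starting at 0. Fbxl4, Fbxl5 and Fbxo31 were higher in the olanzapine rats and Fbxo3 and Fbxw17 lower, with Fbxl4 showing the widest gap.

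The promoters of Fbxl4, Fbxl5 and Fbxo31 are shown because these were the tested receptors whose olanzapine rats all lay above the vehicle rats. Each is the 250 bases before the RefSeq gene start, on the gene's strand, from the GRCr8 assembly, whose coordinates differ from the Rn5 positions above. Capitals mark a match to any of the motifs searched on both strands: the GC box GGGCGG, the CCAAT box CCAAT, the E-boxes CACGTG and CAGCTG, the cAMP response element TGACGTCA, the glucocorticoid response element half-site AGAACA, the NRF1 core TGCGCA and the TATA box TATAAA.
Fbxl4, chr5:40752271-40752520, plus strand: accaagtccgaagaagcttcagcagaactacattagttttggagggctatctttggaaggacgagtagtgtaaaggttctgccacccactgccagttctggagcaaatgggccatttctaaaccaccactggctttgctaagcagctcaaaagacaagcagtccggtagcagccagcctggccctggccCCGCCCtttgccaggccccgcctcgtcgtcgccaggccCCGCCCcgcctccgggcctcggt
Fbxl5, chr14:71521349-71521598, plus strand: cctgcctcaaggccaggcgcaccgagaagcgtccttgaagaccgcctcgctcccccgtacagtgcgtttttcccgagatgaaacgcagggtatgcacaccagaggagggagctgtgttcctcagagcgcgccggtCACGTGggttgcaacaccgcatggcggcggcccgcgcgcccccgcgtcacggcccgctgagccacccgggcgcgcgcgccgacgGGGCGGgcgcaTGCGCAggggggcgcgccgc
Fbxo31, chr19:66564675-66564924, minus strand: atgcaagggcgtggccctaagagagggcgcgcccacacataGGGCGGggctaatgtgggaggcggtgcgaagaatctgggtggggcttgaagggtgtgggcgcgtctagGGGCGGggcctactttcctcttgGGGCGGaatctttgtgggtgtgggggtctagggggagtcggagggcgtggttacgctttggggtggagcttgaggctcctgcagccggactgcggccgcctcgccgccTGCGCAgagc
All 3 windows were GC-rich, at 59.2% for Fbxl4, 72.8% for Fbxl5 and 67.2% for Fbxo31, and held GC boxes, 2 in Fbxl4, 1 in Fbxl5 and 3 in Fbxo31. The Fbxl5 window also held 1 CACGTG E-box, and the windows of Fbxl5 and Fbxo31 each held 1 NRF1 core. No motifs overlapped one another in these windows. None of the 3 held a match to the glucocorticoid half-site, the CCAAT box or the TATA box, which says only that these letters are not in these windows.

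A RefSeq promoter was matched for 49 of the 60 members. A GC box was present in 27 of these 49 (55.1%) and in 30.5% of 33469 rat promoters of the same length. The members' windows had a median GC content of 59.2%, against 51.2% over all promoters. The TATA box was in 0 of the 49, against 12.9% of all promoters, and the CCAAT box in 13 (26.5%), against 34.0%. The NRF1 core was in 6 members (12.2%), against 6.14% of all promoters, CAGCTG in 4, against 12.0%, CACGTG in 1 (Fbxl5), against 5.59%, TGACGTCA in 1, against 1.59%, and the glucocorticoid half-site in 8 (16.3%), against 17.5%. These matches are a description of letters, and the GC box itself consists of G and C alone.

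The most abundant receptor, Fbxo6, was not called. Fbxo6, which binds N-linked glycans on misfolded glycoproteins, was at 92.7, 100.1 and 138 FPKM in the olanzapine rats, against 112, 85.4 and 65.7 FPKM in the vehicle rats. The groups overlapped, with vehicle rat 3 above 2 olanzapine rats, and the log2 fold change of 0.34 (SE 0.24) did not pass the test (limma, adjusted p = 0.543). It was 0.53 without vehicle rat 3 and 0.15 without vehicle rat 11. Fbxl17 removes BTB-domain proteins that have paired wrongly. It was at 23.7, 28.8 and 16.9 FPKM in the olanzapine rats, against 27.4, 23.5 and 30.2 FPKM in the vehicle rats (log2 fold change -0.24, limma, adjusted p = 0.628), with olanzapine rat 12 alone below all vehicle rats. Fbxo7, linked to parkin-dependent mitophagy and to inherited parkinsonism in humans, averaged 9.48 ± 0.833 FPKM in the olanzapine rats and 9.75 ± 1.502 FPKM in the vehicle rats (SD, n = 3 each, log2 fold change -0.03, standard error 0.17).

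Among the Fbxw receptors, Fbxw5 takes part in the turnover of the centriole protein SASS6. It was at 50.7, 56.4 and 46.5 FPKM in the olanzapine rats, against 54.8, 50.4 and 53.3 FPKM in the vehicle rats, and had the narrowest spread of any tested member, with a coefficient of variation of 4.17% in the vehicle rats. Fbxw2, which in human placenta targets the transcription factor GCM1, was at 27.3, 25.4 and 23.4 FPKM in the olanzapine rats, against 29.8, 25.4 and 23.0 FPKM in the vehicle rats. Both gave fold changes near 0 (-0.05 for Fbxw5 and -0.03 for Fbxw2 on the log2 scale) that turned positive under median-ratio scaling, at 0.12 and 0.14, and when olanzapine rat 12 was left out, at 0.018 and 0.023. RefSeq lists 4 pseudogenes of Fbxw2, and 1 each of Fbxw11, Fbxo22 and Fbxo5, so reads shared with these copies make their levels uncertain. Fbxw7, the tumour suppressor that recognises phosphorylated c-Myc, cyclin E, Notch and c-Jun, was at 2.54, 2.05 and 2.73 FPKM in the olanzapine rats, against 3.82, 2.48 and 4.89 FPKM in the vehicle rats. Its groups overlapped at vehicle rat 9, and the log2 fold change of -0.43 (SE 0.23) did not pass the test (limma, adjusted p = 0.451). Fbxw11, one of the beta-TrCP proteins that act on phosphorylated IkappaB and beta-catenin, and Fbxw8, which partners Cul7 and targets IRS1, had log2 fold changes of -0.24 and -0.34 with overlapping groups.

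Fbxo3 and Fbxw17 were the tested receptors with all olanzapine rats below all vehicle rats. Fbxo3, which targets another F-box protein, Fbxl2, lies at chr3:100608784-100640793 (Rn5) and was at 13.6, 13.2 and 9.29 FPKM in the olanzapine rats, against 18.8, 14.1 and 15.2 FPKM in the vehicle rats. It gave a log2 fold change of -0.39 (SE 0.20, limma, adjusted p = 0.429), and vehicle rat 9 and olanzapine rat 4 were close to each other. Fbxw17, at chr17:17134536-17152331 (Rn5), had 0.980, 0.925 and 1.12 FPKM in the olanzapine rats, against 1.27, 1.71 and 1.82 FPKM in the vehicle rats, with a log2 fold change of -0.37 (SE 0.20, limma, adjusted p = 0.456). After median-ratio scaling both groups overlapped for each gene, at log2 fold changes of -0.23 for Fbxo3 and -0.27 for Fbxw17.

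Fbxo11, Fbxo33 and Fbxo21 were also among the most negative members, with overlapping groups. Fbxo11, which targets the transcriptional repressor BCL6, was at 3.23, 2.19 and 1.66 FPKM in the olanzapine rats, against 3.23, 3.17 and 4.27 FPKM in the vehicle rats (log2 fold change -0.46, limma, adjusted p = 0.422). Olanzapine rat 4 was level with vehicle rat 3 there, while the other olanzapine rats were lower. Fbxo33, described as a receptor for the cold-shock protein YB-1, was at 1.26, 0.665 and 0.811 FPKM in the olanzapine rats, against 1.72, 1.01 and 2.14 FPKM in the vehicle rats (log2 fold change -0.44, limma, adjusted p = 0.463). Fbxo21, named SMART in mouse muscle where it was linked to atrophy, was at 3.397, 2.56 and 2.32 FPKM in the olanzapine rats, against 4.81, 2.90 and 4.10 FPKM in the vehicle rats (log2 fold change -0.38, limma, adjusted p = 0.468). Olanzapine rat 4 was again the one inside the vehicle range. Fbxo21 lies within Nos1, at a mean of 1.56 FPKM, and the libraries did not mark strand, so reads of the 2 genes may not be told apart where they overlap.

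On the positive side, Fbxo45, which works with the large ligase MYCBP2 rather than with Cul1, was at 6.90, 5.29 and 4.20 FPKM in the olanzapine rats, against 2.93, 2.07 and 9.12 FPKM in the vehicle rats. Vehicle rat 11 was the highest and vehicle rat 9 the lowest of all 6, and the vehicle coefficient of variation of 81.7% was the widest of any tested member. Its log2 fold change, 0.36 (SE 0.41), did not pass the test (limma, adjusted p = 0.699) and rested on single rats, being 0.87 without vehicle rat 11 and 0.013 without vehicle rat 9. Fbxo9, which acts on TELO2 and TTI1 upstream of mTOR, had a log2 fold change of 0.21 and Fbxo34 of 0.29, and after median-ratio scaling both had all olanzapine rats above all vehicle rats. Under that scaling 5 members lay wholly above (10.6% of all genes) and 0 wholly below (8.85%), and 0 were called in either direction (0.0292% of all genes higher and 0.272% lower).

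By class, 9 of 16 Fbxl genes were tested and had a median log2 fold change of 0.08, with 7 positive. In the Fbxo class 21 of 34 were tested, with a median of -0.07 and 6 positive, and in the Fbxw class 7 of 10, with a median of -0.24 and 1 positive, Fbxw4 at 0.04. The median over the 37 tested members was -0.03, against -0.11 over all tested genes, with 14 positive and 23 negative. After median-ratio scaling, which moved the median of all tested genes to 0.03, 24 of the 37 were positive. The 13 members averaging 10 FPKM or more had a median of -0.03 (all genes at that level -0.01), and the 24 between 1 and 10 FPKM had -0.05 (all genes -0.16). Single tested members had a median coefficient of variation of 20.3% among the vehicle rats.

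For 9 of the 20 members below 1 FPKM but above 0 the values could be written as whole multiples of their smallest value after allowing for depth, within 0.1 of a whole number, and if that smallest value is taken as 1 read these were 0 to 5 reads per rat. Fbxo5 (Emi1), an inhibitor of the anaphase-promoting complex, then had 0, 0 and 1 reads in the olanzapine rats and 4, 2 and 2 in the vehicle rats. With 1 RefSeq pseudogene of Fbxo5, these few reads may be shared with that copy. Fbxl16, a receptor-like protein that does not form a usual SCF ligase, had 0, 0 and 1 in the olanzapine rats and 3, 5 and 2 in the vehicle rats. Fbxl2, the target of Fbxo3, was at 0.202, 0.208 and 0 FPKM in the olanzapine rats, against 0.652, 0.418 and 0.412 FPKM in the vehicle rats. These 3 had all olanzapine rats below all vehicle rats when the filter on low values was dropped (11.5% of 16681 genes), and Fbxw9 joined those above (4.14%), at 0.616, 0.441 and 0.669 FPKM in the olanzapine rats and 0.343, 0.338 and 0.366 FPKM in the vehicle rats. In that fit 0 of the 57 members were called (all genes 0.054% higher and 0.108% lower). Before adjustment, at p under 0.05, 3 members were higher (3.24% of all genes): Fbxl5, Fbxo31 and Fbxl4. The last was selected on this contrast, so its place there is no test. Fbxl16, Fbxl2 and Fbxo5 were lower (7.04%). Fbxl22, a sarcomeric receptor of heart muscle that acts on alpha-actinin-2 and filamin C, was at 0.513, 0.261 and 0.349 FPKM in the olanzapine rats, against 0.306, 0.460 and 1.22 FPKM in the vehicle rats, and the groups overlapped.

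No gene of the shared SCF machinery passed the limma test. Of 10 tested core genes 0 were called (1 at an unadjusted p under 0.05, and 2 by the Poisson test), with a median log2 fold change of 0.13. Cul1, the scaffold, was at 25.8, 20.8 and 20.9 FPKM in the olanzapine rats, against 32.3, 21.3 and 23.2 FPKM in the vehicle rats (log2 fold change -0.16), and Skp1, the adaptor, had a log2 fold change of 0.01. Rnf7, the RING protein that can replace Rbx1, was at 48.0, 43.8 and 69.0 FPKM in the olanzapine rats, against 37.2, 28.2 and 23.1 FPKM in the vehicle rats. Its groups did not overlap, but the log2 fold change of 0.84 did not pass the test (limma, adjusted p = 0.216). Cdc34, the chain-building conjugating enzyme, also had groups without overlap at 0.37, and Ube2d2, another conjugating enzyme, had -0.35 with overlap. Of 21 tested genes of cullin neddylation and receptor exchange 0 were called (1 at an unadjusted p under 0.05, and 0 by the Poisson test), with a median of 0.07. Cand1, which swaps F-box proteins on Cul1, was at 2.89, 3.03 and 2.31 FPKM in the olanzapine rats, against 3.81, 4.70 and 5.53 FPKM in the vehicle rats. All olanzapine rats were lower, and the log2 fold change of -0.60 did not pass the test (limma, adjusted p = 0.255). Nae1, a subunit of the NEDD8-activating enzyme, had -0.47 with overlap, and Dcun1d1, a NEDD8 ligase, 0.44 without. F-box proteins that carry other names gave 0 calls of 5 tested (0 at an unadjusted p under 0.05, and 0 by the Poisson test) and a median of -0.30, among them Lmo7 at -0.48, Kdm2b at -0.42 and Btrc, the other beta-TrCP, at 0.31.

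Genes around Fbxl4 in mitochondria gave no limma call. Of 11 tested mitophagy genes 0 were called (1 at an unadjusted p under 0.05, and 2 by the Poisson test), with a median log2 fold change of -0.14. Bnip3, a mitophagy receptor, was at 56.2, 43.1 and 79.9 FPKM in the olanzapine rats, against 94.8, 60.4 and 45.3 FPKM in the vehicle rats, and the groups overlapped throughout (log2 fold change -0.14, limma, adjusted p = 0.853). Bnip3l, which encodes NIX, had a log2 fold change of -0.04, and Pptc7, the mitochondrial phosphatase that assists Fbxl4, of -0.24. Bcl2l13, another outer-membrane mitophagy receptor, was at 13.5, 18.3 and 15.1 FPKM in the olanzapine rats, against 22.4, 20.2 and 19.96 FPKM in the vehicle rats. There all olanzapine rats were lower, at a log2 fold change of -0.40 that did not pass the test (limma, adjusted p = 0.367). Park2, which encodes parkin, had 0.35 and Phb2, a prohibitin, -0.29, both with overlap.

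Of 22 tested genes of mitochondrial DNA maintenance 0 were called, 19 were negative, and the median was -0.18, against -0.11 for all tested genes. At an unadjusted p under 0.05 limma gave 3, and the Poisson test called 2. Those with the largest values were Rrm2b, a ribonucleotide reductase subunit, at -0.57, Rnaseh1 at -0.53 and Opa1, the inner-membrane fusion GTPase, at -0.53. Opa1 was at 17.5, 19.6 and 11.4 FPKM in the olanzapine rats, against 21.8, 23.1 and 24.7 FPKM in the vehicle rats, without overlap (limma, adjusted p = 0.352). Tfam, which packages mitochondrial DNA, had a log2 fold change of -0.14.

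Transcripts of known F-box substrates were compared as well, although these receptors act on the proteins. Of 31 tested, limma called 2 lower (0.457% of all tested genes) and 0 higher (0.0486%), and 6 had an unadjusted p under 0.05. Log2 fold changes were negative for 23 and positive for 8, with a median of -0.19. Actn2, alpha-actinin-2 of the Z-disc and a substrate of Fbxl22, was at 481, 401 and 298 FPKM in the olanzapine rats, against 1097, 1137 and 1102 FPKM in the vehicle rats. It fell by 1.52 on the log2 scale (SE 0.21, limma, adjusted p = 0.0279). The authors list Actn2 among slow or intermediate fiber genes, and Fbxl22 itself averaged 0.519 FPKM and was not tested. Jun, a substrate of Fbxw7, was at 41.2, 30.7 and 37.7 FPKM in the olanzapine rats, against 71.4, 85.6 and 89.2 FPKM in the vehicle rats, and had a log2 fold change of -1.15 (limma, adjusted p = 0.0403). Flnc, filamin C, had -1.10 with no overlap and did not pass the test (limma, adjusted p = 0.0856). Cdkn1a, the cell cycle inhibitor p21, was at 26.6, 43.6 and 38.7 FPKM in the olanzapine rats, against 13.2, 12.5 and 16.9 FPKM in the vehicle rats, without overlap (log2 fold change 1.28, limma, adjusted p = 0.0581). Closer to the receptors above, Ireb2, the IRP2 transcript that pairs with Fbxl5, had -0.41, and Ccnd1, the cyclin D1 transcript that pairs with Fbxo31, had -0.46, both with overlap. Both calls were lost without a filter on low values, after median-ratio scaling, and when any rat other than olanzapine rat 4 was left out.

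Slow fiber transcripts fell in the same muscles. Of 10 slow fiber genes limma called 9 lower (0.457% of all tested genes), and all 10 had all olanzapine rats below all vehicle rats. The median log2 fold change was -2.56, with sums of 2830 to 7295 FPKM in the olanzapine rats and 18924 to 34210 FPKM in the vehicle rats. The 9 called were Myh7, Atp2a2, Tnnt1, Casq2, Tpm3, Tnni1, Myoz2, Myl2 and Myl3, with log2 fold changes between -3.22 and -2.28. Tnnc1, at -2.31, did not pass the test (limma, adjusted p = 0.0839). Of 11 fast fiber genes 0 were called (7 at an unadjusted p under 0.05, and 11 by the Poisson test), 8 had all olanzapine rats above all vehicle rats, and the median was 0.83. The largest values in the list were Pvalb at 1.72, Mylpf at 1.27 and Myh4 at 1.19. The groups overlapped for Myh4 (SE 0.59), at 3261, 3470 and 2263 FPKM in the olanzapine rats, against 425, 2341 and 2168 FPKM in the vehicle rats. Vehicle rat 3 was thus far below every other rat for Myh4. Both fiber lists were chosen with results of these rats known, so neither is separate evidence. Of the 9 slow fiber calls 1 was left without the filter on low values, and also when any rat other than olanzapine rat 4 was left out. Whether the values of Fbxl4 and the other receptors moved with fiber type was not tested.

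Markers of other cell types gave no limma call, and their summed levels overlapped between the groups. Sums were 67.8 to 111 FPKM in the olanzapine rats and 95.0 to 115 FPKM in the vehicle rats for 8 endothelial genes. All 8 endothelial log2 fold changes were negative, with a median of -0.25, and Kdr at -0.80 and Flt1 at -0.56 had all olanzapine rats below all vehicle rats. Sums were 25.4 to 39.8 FPKM in the olanzapine rats and 22.2 to 36.6 FPKM in the vehicle rats for 8 macrophage and leukocyte genes. The 7 fibroblast genes spanned 490 to 737 FPKM in the olanzapine rats and 345 to 1376 FPKM in the vehicle rats, and 1 of them was at 0 in every rat. All 6 tested fibroblast log2 fold changes were negative too, with a median of -0.36 and overlapping groups. The 6 adipocyte genes summed to 246 to 780 FPKM in the olanzapine rats and 264 to 425 FPKM in the vehicle rats, and 5 erythroid genes to 4639 to 9605 FPKM in the olanzapine rats and 1725 to 13873 FPKM in the vehicle rats. Of 5 tested adipocyte genes 4 were positive, with a median log2 fold change of 0.38. The macrophage and leukocyte, erythroid, Schwann cell and smooth muscle genes had log2 fold changes of both signs. The 6 Schwann cell genes spanned 44.6 to 51.3 FPKM in the olanzapine rats and 39.7 to 65.2 FPKM in the vehicle rats, and 4 smooth muscle genes 49.1 to 77.1 FPKM in the olanzapine rats and 42.2 to 87.2 FPKM in the vehicle rats. At an unadjusted p under 0.05 limma gave 2 endothelial and 2 smooth muscle genes. The part of these cell types in the F-box values was not tested.

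**Figure D5:**
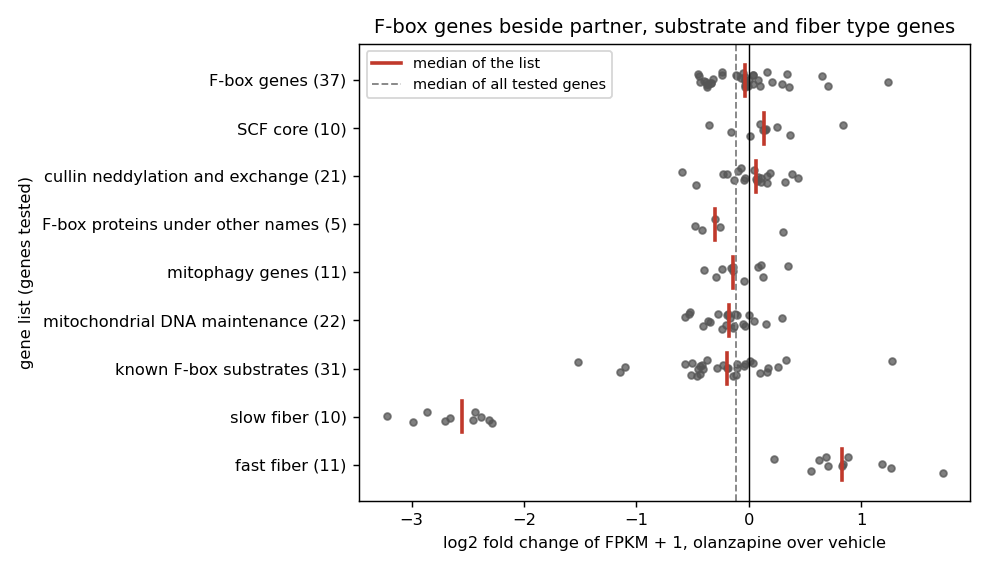
Log2 fold change of FPKM + 1, olanzapine over vehicle, for each tested gene (grey points) of the F-box family, its partner and substrate lists and the fiber type lists, with red ticks at list medians. The 37 F-box genes have a median of -0.03, close to the dashed all-gene median of -0.11, while the slow fiber genes center at -2.56 and the fast fiber genes at 0.83.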

How the data were processed

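Gastrocnemius mRNA of 6 rats was sequenced by the authors for 50 cycles and, per the labels and methods, processed with CASAVA 1.8.2, mapped to Rnor_5.0 (Rn5) with TopHat2 2.0.9 and quantified with Cufflinks 2.2.1. The deposited values are FPKM per gene and rat. The table's columns of the authors' group means, errors, fold changes and p-values were not used. The libraries were not strand-marked, so overlapping genes and pseudogene copies are uncertain.

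Genes averaging 1 FPKM or more across the 6 rats were tested with limma 3.58.1 (R 4.3.3, moderated with a trend, two-sided) on log2(FPKM + 1), olanzapine minus vehicle, with Benjamini-Hochberg adjustment over all 10285 genes and calls at an adjusted p under 0.05. Adding 1 understates fold changes of low genes. FPKM carry no read counts, so no counting interval was computed and relative depth was read from the steps between low values. The fit was tested on simulated data. Promoter windows and pseudogenes came from RefSeq tables of GRCr8 for 250 bases before each start. Tables and plots used Python 3.11.15, pandas 2.3.3 and matplotlib 3.10.9.

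Named with all 6 values were Fbxl4, the 5 members of highest mean, the tested members without overlap, and the 5 largest positive and 5 largest negative fold changes. From each partner, substrate and fiber list, called genes and the 3 largest changes were named, plus known partners of named members. Members and lists were chosen with earlier results of these data known. Alternatives were other pseudocounts, filters and scalings, limma without a trend, summed entries per symbol, and leaving out each rat. A Poisson test on FPKM summed per group, near the authors' DEGseq test, was another. Individual values of 1 member are not reported here, and it is counted in all totals.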

Additional observations from a re-analysis of the deposited data

How the results depend on the processing

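Fbxl4 had log2 fold changes between 1.07 and 1.40 over the alternatives run, given as a description. Its groups did not overlap, so leaving out a rat could not have reversed its direction. The count of F-box members called, 1 as reported, was 0 when the filter on low values was dropped, 0 after scaling by median-ratio size factors, 0 in limma without a trend, 0 to 0 when each rat was left out, and 2 by the Poisson likelihood ratio test (Fbxl4, which was selected on this contrast, and Fbxo31). Members without overlap numbered 5 as reported, 9 with no filter and 6 to 11 when each rat was left out, which leaves fewer rats to separate. With no filter 4 were higher (4.14% of all genes) and 5 lower (11.5%). Leaving out 1 rat gave 3 to 5 members higher, where 7.29% to 11.5% of all genes were higher without overlap. It gave 2 to 7 members lower, where 17.2% to 28.1% of all genes were. With median-ratio size factors 5 members were higher (10.6% of all genes) and 0 lower (8.85%), against 3 (5.12%) and 2 (14.6%) as reported.

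Over all genes, 52 calls as reported became 27 with no filter, 102 when genes at 0 in any rat were left out, 31 with median-ratio size factors, 815 by the Poisson test, and 13 to 56 when each rat was left out, the highest without olanzapine rat 4. Among known F-box substrates, 2 calls became 0 with no filter, 4 when genes at 0 in any rat were left out, 0 with median-ratio size factors, 1 without a trend, 5 by the Poisson test and 0 to 2 when each rat was left out. Slow fiber calls, 9 as reported, became 1 with no filter, 4 with median-ratio size factors and 1 to 10 when each rat was left out. Fast fiber calls, 0 as reported, became 1 with a mean of at least 5 FPKM and 11 by the Poisson test. The Poisson test also called 2 SCF core genes, 2 mitophagy genes and 2 genes of mitochondrial DNA maintenance, where limma called 0 in each. Unlike limma, the Poisson test treats summed FPKM as counts and has no term for the spread between rats. The cause of these moves was not tested.

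Fold changes of 13 named members other than Fbxl4 were followed through the alternatives, and among these the signs of Fbxw5 and Fbxw2 reversed. Fbxw5 was at 0.12 with median-ratio size factors and from -0.12 to 0.018 when each rat was left out (0.018 without olanzapine rat 12). Fbxw2 was at 0.14 with median-ratio size factors and from -0.11 to 0.066 when each rat was left out. It was at 0.023 without olanzapine rat 12 and at 0.066 without vehicle rat 3. Members outside the named ones also changed sign. With median-ratio size factors 24 of the 37 tested members were positive, against 14 as reported. Each symbol had 1 entry, so summing entries changed no member. No paired analysis was run, since the labels state no pairing between olanzapine and vehicle rats. The labels do not say whether neighbouring rat numbers mark rats infused together, and a fit blocked on them was not run. Reads per rat are unknown, so the size of difference that could be seen below 1 FPKM was not measured.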

Other observations

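Fbxw12 was listed at 0 in all 6 rats, while an unnamed locus inside it (ENSRNOG00000020718, chr8:117225348-117225578 in Rn5) had a mean of 272.8 FPKM. Fbxo44 overlaps Fbxo2, a receptor for N-linked glycans that is abundant in neurons. Fbxo44 averaged 2.84 FPKM over the 6 rats and Fbxo2 was above 0 in vehicle rat 9 alone, at 0.126 FPKM, so the assignment of reads between this overlapping pair is uncertain. These loci were chosen after their values were seen.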
